A study of Mus musculus with 6 samples.

Results

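The small leucine-rich proteoglycans measured here are 10 genes (Dcn, Lum, Bgn, Ogn, Fmod, Prelp, Aspn, Omd, Podn and Epyc) of the 33697 genes counted in the libraries, taken by their gene symbols, and all 10 were found. The study asked which cells of the intestinal lamina propria express the cytokine TSLP, and live tdTomato+ cells were sorted from untreated Flare-TSLP mice and sequenced as single cells. There were 2 libraries of proximal jejunum (proximal 1 and 2), 2 of distal ileum (distal 1 and 2), 1 of cecum and 1 of large intestine. Flare-TSLP mice carry an IRES-tdTomato reporter at the 3′ end of Tslp, with loxP sites in the locus, on the C57BL/6 background, and the line goes back to a single embryonic stem cell clone. The mice were adults of both sexes in pooled experiments, and neither age nor sex is tied to a library. Reporter-negative cells were not sorted as a group of their own, so each level below is a level among cells that passed the tdTomato sort gate. The study then removed clusters with very few cells holding tdTomato transcript, a filter not applied here. The libraries held 289 to 1017 tdTomato UMIs each, and cells carried over without the reporter may be among those analysed. The cells of a library carried 3 hashtag antibodies, one set in proximal 1, distal 1, cecum and large intestine and another in proximal 2 and distal 2. The study used hashtags for multiplexing and names at least 3 biological samples for proximal and for distal small intestine, so a library may pool several mice. The hashtags are not paired with mice in the labels, so that each library counts as 1 sample. Between gut regions the p-values measure the spread between libraries. Between classes, where the library is a block, they measure the spread of the class difference over libraries. The same holds where that difference is compared between regions. Both kinds of spread differ from the spread between mice if libraries are pools.

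Small leucine-rich proteoglycans are secreted proteins built around leucine-rich repeats, many of which carry chondroitin, dermatan or keratan sulfate chains. They bind collagen fibrils and set their diameter and spacing, and several hold growth factors such as TGF-β in the matrix. In connective tissue decorin, encoded by Dcn, is a widely used fibroblast marker, and in the gut wall these proteins belong to the interstitial matrix that fibroblasts lay down around crypts, villi and vessels. Dcn, Bgn and Aspn encode the decorin-like members. Lum, Fmod, Prelp and Omd encode the lumican-like members, Ogn and Epyc another branch, and Podn a more distant one.

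Levels are given as CPM, a gene's UMIs scaled to 1000000 UMIs of its class and library, and 4 values in a row stand for proximal 1, proximal 2, distal 1 and distal 2 in that order. Cecum and large intestine follow where 6 are given. The counts come from transcript ends, so that levels of different genes were not set against each other. Intervals on a single library cover counting error only.

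The libraries held 109675337 to 206827504 gene UMIs, and 85005 of 91122 cells fell in a class gated on marker genes, none of which is one of the 10 genes. Fibroblasts were 57.9 to 96.1% of the classed cells, median depth was 6590 to 9162 UMIs per cell, and 0.283 to 0.573% of barcodes were shared between any pair of libraries. Markers kept out of a class's own gate were highest in that class for 9 of the 11 classes or lineages checked this way. The exceptions were the trophocyte-like cells (gated on Ackr4, Grem1, Dkk2 and Cd34), where 1 of 3 held, and the SEMF-like cells (subepithelial myofibroblast-like, gated on Wnt4, Procr, Agt, Nrg1, Sox6 and Bmp5), where 2 of 3 held. In the small intestine the summed SEMF markers were also higher in the telocyte-like cells (gated on Bmp7, Bmp3, Lgr5 and Wnt5a) than in the SEMF-like cells, 7078 to 11377 against 1496 to 1847 CPM, so that SEMF-like here means cells inside that gate and outside the telocyte one. Pdgfra was at 367 to 451 in SEMF-like and at 2291 to 2779 in telocyte-like cells of the small intestine. It was a check marker of the telocyte-like cells but also a gate marker of the fibroblast lineage. In free RNA the ileal gene Fabp6 was at 15.6 and 6.15 CPM in distal 1 and 2 and at most 0.173 in the proximal libraries, but it was also at 12.1 in the large intestine library. The colonic gene Car1 was at 708 in the large intestine and 11.8 in the cecum, against at most 0.879 in the small intestine.

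Several of the genes lie next to each other in the mouse genome (GRCm39 coordinates). Dcn (10:97315275-97358155), Lum (10:97400990-97408577) and Epyc (10:97479853-97518316) lie on the plus strand of chromosome 10. Aspn (13:49697609-49721057), Omd (13:49735938-49746298) and Ogn (13:49761349-49780412) lie on the plus strand of chromosome 13, with 14880 and 15050 bases between neighbours. Prelp (1:133837335-133857971, minus strand) and Fmod (1:133964992-133976015, plus strand) are 107020 bases apart. Bgn is at X:72527208-72539541 and Podn at 4:107871988-107889534. Aspn, Omd and Ogn lie within Cenpp on the opposite strand, whose own count was 12506 UMIs over all fibroblasts of the 6 libraries. Prelp overlaps Gm15851 on the opposite strand (396 UMIs). A 250-base RefSeq window before the annotated start was at hand for 8 of the 10 genes (none for Dcn and Lum), from a GRCm38.p6 table whose windows were placed in GRCm39 by exact match. The 5 windows of the chromosome 13 and chromosome 1 neighbours are printed because results below turn on Aspn, Ogn, Prelp and Fmod, and Omd lies between Aspn and Ogn. They read 5′ to 3′ on the strand of the gene, at chr13:49697669-49697918 (Aspn), chr13:49735688-49735937 (Omd), chr13:49761241-49761490 (Ogn), chr1:133849140-133849389 (Prelp, minus strand) and chr1:133964742-133964991 (Fmod). Capitals mark a match on either strand to 3 motifs. The first is TATAAA, the box bound by the basal transcription machinery at many tissue-restricted genes. Another is CCAAT, the box bound by the factor NF-Y. The last is GGAATG, the core bound by TEAD factors.
Aspn promoter: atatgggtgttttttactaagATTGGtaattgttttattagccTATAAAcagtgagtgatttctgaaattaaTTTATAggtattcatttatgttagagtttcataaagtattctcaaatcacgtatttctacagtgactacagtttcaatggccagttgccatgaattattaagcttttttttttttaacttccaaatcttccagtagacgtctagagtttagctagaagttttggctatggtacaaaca
Omd promoter: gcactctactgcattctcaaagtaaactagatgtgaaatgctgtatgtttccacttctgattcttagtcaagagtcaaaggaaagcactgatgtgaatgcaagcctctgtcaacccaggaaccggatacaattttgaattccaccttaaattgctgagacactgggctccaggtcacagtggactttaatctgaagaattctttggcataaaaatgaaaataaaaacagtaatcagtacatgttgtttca
Ogn promoter: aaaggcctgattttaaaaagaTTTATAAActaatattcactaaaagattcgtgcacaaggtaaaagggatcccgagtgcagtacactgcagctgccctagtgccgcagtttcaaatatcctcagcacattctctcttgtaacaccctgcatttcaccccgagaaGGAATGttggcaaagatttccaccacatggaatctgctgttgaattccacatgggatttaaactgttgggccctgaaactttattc
Prelp promoter: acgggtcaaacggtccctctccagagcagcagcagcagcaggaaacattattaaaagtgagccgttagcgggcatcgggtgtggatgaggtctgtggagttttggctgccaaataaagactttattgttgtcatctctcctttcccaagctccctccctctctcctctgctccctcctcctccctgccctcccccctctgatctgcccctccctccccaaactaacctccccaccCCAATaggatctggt
Fmod promoter: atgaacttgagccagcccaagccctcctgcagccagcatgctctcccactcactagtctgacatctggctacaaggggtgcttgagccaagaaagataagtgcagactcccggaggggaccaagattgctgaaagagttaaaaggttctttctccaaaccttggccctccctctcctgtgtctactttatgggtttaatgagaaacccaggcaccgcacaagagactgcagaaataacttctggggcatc
A motif on the minus strand is printed as its reverse complement. The Aspn window held a CCAAT box 229 bases and TATA letters 207 and 178 bases before the start. The Ogn window held overlapping TATA letters of both strands 229 and 227 bases before the start and the TEAD core 86 bases before it, and the Prelp window a CCAAT box 15 bases before it. Omd and Fmod held none of the 3 motifs. Of 32851 windows of the same length, 12.4% held TATAAA, 33.8% CCAAT and 12.6% GGAATG, so that each match is of a common kind. GC content was 30.0% for Aspn, 38.4% for Omd, 42.0% for Ogn, 55.6% for Prelp and 51.2% for Fmod. For Aspn and Prelp the window lay inside the gene body given above, and for Ogn it ran across the start of it, since the RefSeq start differs from the outermost start of the gene.

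In the small intestine 8 of the 10 genes had their highest mean level in a fibroblast class or in contractile cells, and the other 2 had it in vessel-associated cells. Dcn, Omd and Epyc were highest in the Pi16+ Dpp4+ universal fibroblast-like cells, Lum in fibroblasts with Ptn, Scg2 or Gdf10, and Bgn and Aspn in fibroblasts with Ccl8 and Postn. Ogn was highest in telocyte-like cells and Podn in myofibroblast-like cells. Fmod was highest in pericyte-like cells, and Prelp in LEC-like cells, the lymphatic endothelial cells of the sort. Most neighbours in these orders were not separated by the spread between libraries: among 15 classes, the ranges of 10 to 14 of the 14 neighbouring pairs overlapped for each gene. The first place was clear of the second for Prelp and Fmod, and overlapped it for the other 8.

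**Figure D1:**
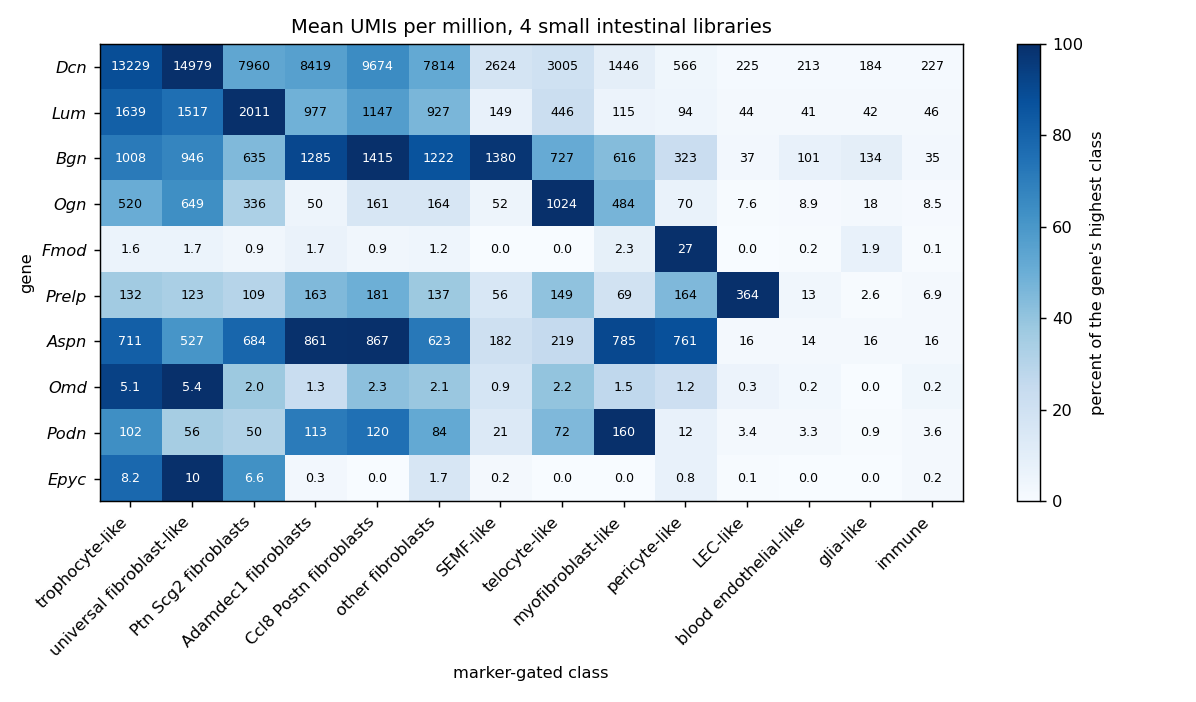
Mean level of each gene (rows) in 14 of the marker-gated classes (columns) over the 4 small intestinal libraries, in CPM, with color giving percent of the gene's highest class shown. Prelp peaks at 364 in LEC-like cells and Fmod at 27 in pericyte-like cells, while Ogn falls from 1024 in telocyte-like to 52 in SEMF-like cells.

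Within the fibroblasts, SEMF-like cells were compared with trophocyte-like cells. The study places SEMFs beneath the epithelium and Grem1+ trophocytes at the crypts, and the position of the cells gated here was not measured. Of the 10 genes, 9 were lower in SEMF-like cells and none was higher, where 30.1% of 16189 tested genes were lower and 27.9% higher (edgeR quasi-likelihood test on summed UMIs, Benjamini-Hochberg adjusted p under 0.05, library as a block). The median log2 difference of the 10 was -2.72, against -0.00 for all tested genes. A list of 9 dissociation stress genes, among them Fos and Jun, summed to 8400, 8243, 9429 and 7430 CPM in trophocyte-like and to 1751, 761, 2013 and 883 in SEMF-like cells, and its part in the differences was not tested.

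Dcn, the main collagen-bound proteoglycan of fibroblasts, was at 14214, 14157, 13898 and 10648 CPM in trophocyte-like cells and at 2410, 2621, 3167 and 2299 in SEMF-like cells. Every trophocyte-like value lay above every SEMF-like value. The difference was 5.99-fold (log2 -2.58 ± 0.0945 SE, adjusted p = 2.36e-06). Lum, a keratan sulfate proteoglycan that spaces collagen fibrils, was at 1682, 1772, 1717 and 1386 in trophocyte-like against 115, 149, 174 and 156 in SEMF-like cells, 13.2-fold lower in the latter. Ogn, also called mimecan, went from 722, 494, 542 and 322 to 74.0, 29.9, 61.4 and 41.9, and was 12.1-fold lower. Neither gene's groups overlapped. Aspn, a decorin relative that binds collagen and TGF-β, fell from 571, 591, 736 and 944 to 143, 276, 116 and 191 (log2 -2.25 ± 0.239, adjusted p = 0.000228). Podn, podocan, was at 99.2, 88.1, 109 and 111 against 19.5, 24.8, 20.4 and 20.8, again without overlap, and 5.55-fold lower. Prelp had the smallest of the 9 called differences, from 109, 109, 153 and 157 to 49.4, 81.5, 48.2 and 45.7 (log2 -1.48 ± 0.214, adjusted p = 0.00105).

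The 3 sparse genes went the same way. Omd, osteomodulin, known from bone, had 1258 UMIs in trophocyte-like and 29 in SEMF-like cells over the 4 libraries and was 7.21-fold lower. Epyc, epiphycan, known from cartilage, had 1938 against 7 UMIs, and was 51.4-fold lower (log2 -5.68, and -5.08 without proximal 1). Fmod, fibromodulin, had 392 UMIs against 1, a ratio of levels of 65.6 with a counting interval of 11.7 to 2598. Bgn, the close relative of Dcn, was the exception. Its levels were 916, 1013, 1072 and 1032 in trophocyte-like and 1512, 1416, 1436 and 1156 in SEMF-like cells. They were higher in the latter in 4 of 4 libraries, without overlap. After TMM scaling between the classes the difference was 1.15-fold and missed the threshold (log2 0.20 ± 0.0834, adjusted p = 0.0773), and it passed without distal 2 (log2 0.27). None of the other 9 calls was lost in any of the 13 alternatives tried.

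Genes around the family were read from lists. Of 10 other leucine-rich proteoglycan and related genes 6 were tested, of which 1 was higher in SEMF-like cells (Podnl1, the paralog of Podn, log2 5.06) and 3 lower, among them Ecm2, the chromosome 13 neighbor of Aspn (154 ± 22.6 SD in trophocyte-like against 39.5 ± 6.08 in SEMF-like cells, n = 4 libraries). Of 22 genes that build chondroitin and dermatan sulfate chains 21 were tested, with 4 higher and 13 lower. The lower ones included Xylt1, which starts the chain on the core protein (log2 -2.85), and Csgalnact1, which adds its first N-acetylgalactosamine (log2 -2.07). The median of the 21 was -0.34.

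Lgr5, which the study uses to mark villus tip telocytes, is among the 4 gate markers of the telocyte-like cells. At least 3 of these were needed, so that a cell could enter the class without Lgr5. In the small intestine the telocyte-like cells numbered 19 to 55 per library, so their levels are less precise. Of 7 genes tested between them and SEMF-like cells, 4 were higher and 1 lower in telocyte-like cells, where 8.05% of 11547 tested genes were higher and 7.3% lower. The 9 stress genes summed to 2565, 2709, 8526 and 2212 CPM in telocyte-like cells, above the SEMF-like sums in each library, and their part in the differences was not tested. Ogn showed the widest difference. It stood at 998, 1074, 606 and 1418 in telocyte-like cells against 74.0, 29.9, 61.4 and 41.9 in SEMF-like cells. The groups lay far apart, and the fold was 20.6 (log2 4.37 ± 0.26, adjusted p = 1.11e-09). Ogn UMIs were seen in 44.0 to 84.2% of telocyte-like cells and 15.0 to 21.3% of SEMF-like cells, against 3.23 to 6.44% of LEC-like cells, which hold Ogn at a few percent of its level in free RNA. With each cell thinned to 2500 UMIs the means were 58.3, 7.32 and 1.86%. The median depths were 7496 to 9451 UMIs in telocyte-like, 7926 to 10373 in SEMF-like and 5413 to 6561 in LEC-like cells.

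Lum was at 237, 451, 517 and 577 in telocyte-like cells, above all 4 SEMF-like values (log2 1.55 ± 0.146, adjusted p = 3.79e-07). Prelp was at 185, 176, 94.3 and 139, also above every SEMF-like value (log2 1.46 ± 0.179). Podn was at 66.1, 38.8, 112 and 72.2, again without overlap (log2 1.73 ± 0.267). Bgn was the one that was lower, at 786, 796, 701 and 624 (log2 -0.90 ± 0.126). Dcn did not pass (interval of the log2 difference -0.19 to 0.49), nor did Aspn, which ranged from 16.0 to 546 between the 4 libraries (interval -0.88 to 0.62). Fmod and Epyc had 0 UMIs in telocyte-like cells of the 4 libraries, and Omd 2. The chain sulfotransferase Chst11 was higher in telocyte-like cells (log2 2.40) and Chst7 and Chst15 lower (log2 -2.55 and -1.23), the 3 calls among 20 chain genes tested. Of 4 other leucine-rich genes tested, Ecm2 was higher (log2 0.78) and Lrrc17 lower (log2 -1.75).

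**Figure D2:**
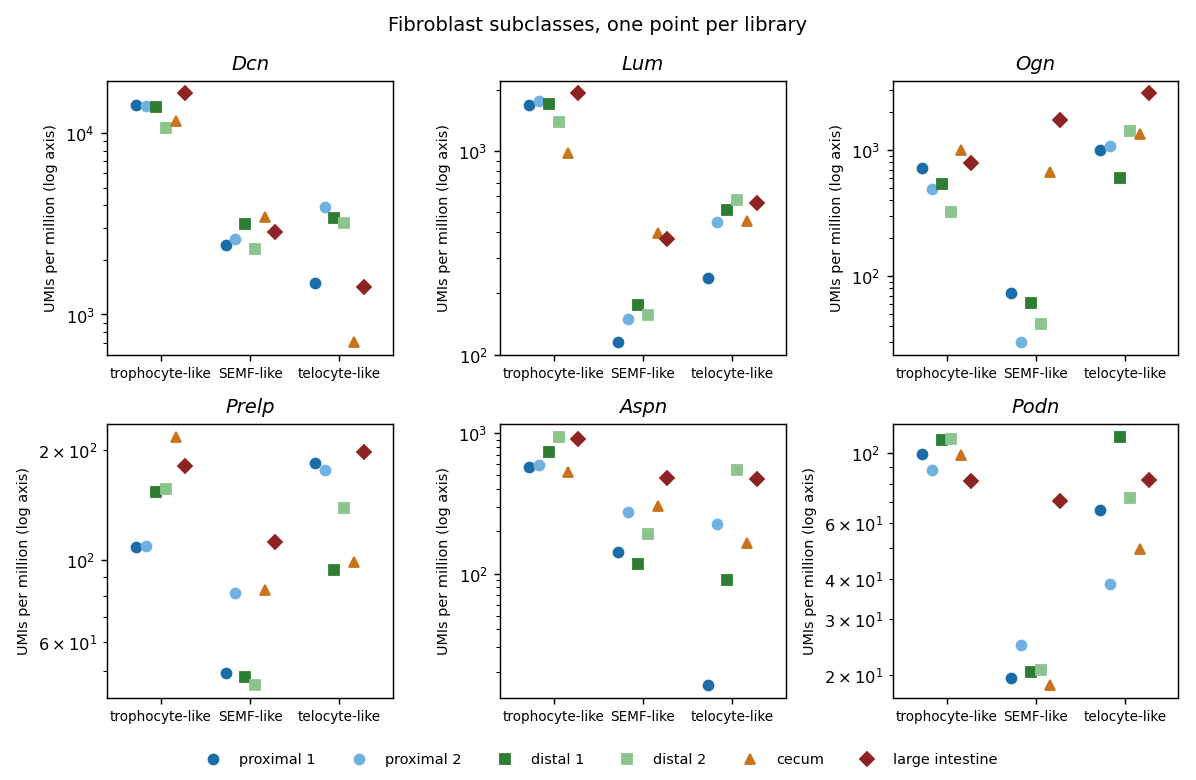
Level of 6 genes in trophocyte-like, SEMF-like and telocyte-like cells, one point per library, in CPM on a log axis. In the 4 small intestinal libraries Ogn lies at 29.9 to 74.0 in SEMF-like cells and at 322 or more in the other classes, while cecum and large intestine reach 670 and 1724 in SEMF-like cells.

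Universal fibroblast-like cells, an adventitial type, were also compared with trophocyte-like cells. Of the 10 genes 2 were higher and 2 lower in them, where 11.4% of 15389 tested genes were higher and 9.19% lower, and the median difference of the 10 was -0.00. The 9 stress genes summed to 9662, 12916, 13710 and 10407 CPM in universal fibroblast-like cells, above the trophocyte-like sums in each library. Their part in the differences was not tested. Podn was lower, at 63.6, 52.6, 54.5 and 52.7 against 99.2, 88.1, 109 and 111, with no overlap (log2 -0.82 ± 0.0762, adjusted p = 1.51e-05). Aspn was lower in each library, with overlapping groups (log2 -0.37 ± 0.0567, adjusted p = 0.000573). Dcn was higher, at 15628, 15050, 17048 and 12190 (log2 0.22 ± 0.0533, adjusted p = 0.0108), and Ogn too (log2 0.41 ± 0.104, adjusted p = 0.0164). Both groups overlapped. The call on Dcn was lost without distal 1 (log2 0.18, adjusted p = 0.106) or without distal 2 (log2 0.21, adjusted p = 0.0837), and that on Ogn at the stricter gate (log2 0.32, adjusted p = 0.0647). Without the library block Dcn, Ogn and Aspn all lost the call (adjusted p = 0.549, 0.403 and 0.225). In cecum and large intestine Dcn was lower in universal fibroblast-like cells, 8112 against 11672 and 12811 against 16530. Of 21 chain genes tested 2 were higher and 3 lower, with Chst15 the farthest (log2 -0.92), and of 5 other leucine-rich genes 2 were higher (Tsku, log2 0.71, and Ecm2, log2 0.36).

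LEC-like cells form the lymphatic vessels, including the lacteals of the villi, and were the largest class outside the fibroblasts in the small intestine. Against all fibroblasts 1 of the 10 genes was higher in them and 9 were lower, where 35.5% of 18115 tested genes were higher and 39.4% lower. Prelp was the one that was higher. PRELP is a basic, heparin-binding member that links basement membrane to collagen. Its levels were 363, 392, 364 and 339 in LEC-like cells and 109, 115, 152 and 135 in fibroblasts, with no overlap and a 2.95-fold difference (log2 1.56 ± 0.116, adjusted p = 1.94e-05). Cecum and large intestine went the same way, at 548 and 400 against 182 and 156. The call held in all 13 alternatives, with log2 differences from 1.40 to 1.67.

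The other 9 genes fell by 3.39 (Omd) to 6.45 (Fmod) on the log2 scale in LEC-like cells. For Fmod this rests on 1 UMI against 580, a ratio of 128 with a counting interval of 22.9 to 5068. The median of the 10 was -5.10, against -0.06 for all tested genes. Their remaining level was compared with free RNA, read from barcodes of at most 100 UMIs in the same library. In the 4 small intestinal libraries the LEC-like level was 2.72 to 5.44% of the free RNA level for Dcn, Lum, Bgn, Ogn, Aspn and Podn. For Prelp it was 169 to 288%. In immune cells Prelp was at 2.81 to 6.04% of free RNA. Prelp UMIs were found in 76.9 to 84.9% of LEC-like cells at a median depth of 5413 to 6561 UMIs, and in 5.00 to 9.34% of immune cells at 5692 to 10048. Thinned to 2500 UMIs the means were 56.3% and 2.22%. The 5 fibroblast gate markers summed to 141 to 256 CPM in LEC-like cells, with all 5 detected. Subtracting 10% of each sum along the free RNA profile takes any gene below 10% of its free RNA level to 0. For these 6 genes the outcome in LEC-like cells was therefore set by the percentages above, and it says nothing further about them. The mean levels of Dcn, Lum and Bgn went to 0. The log2 differences of Ogn, Aspn and Podn became -17.2, -18.2 and -15.2, fitted values that are no bound.

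Blood endothelial-like cells held Prelp at 5.83 to 17.5 CPM, below every LEC-like value, a difference that was not tested. Among chain genes, 4 of 21 were higher in LEC-like cells and 13 lower. Csgalnact1 (335 ± 22.1 SD against 29.9 ± 3.18, n = 4 libraries) and Chst15 (314 ± 26.1 against 68.0 ± 3.62) were higher, while Ust and Chpf, a uronyl sulfotransferase and a chain polymerizing factor, were lower (log2 -5.42 and -4.98). Of 7 other leucine-rich genes tested, Optc was higher (log2 0.63) and 5 were lower.

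**Figure D3:**
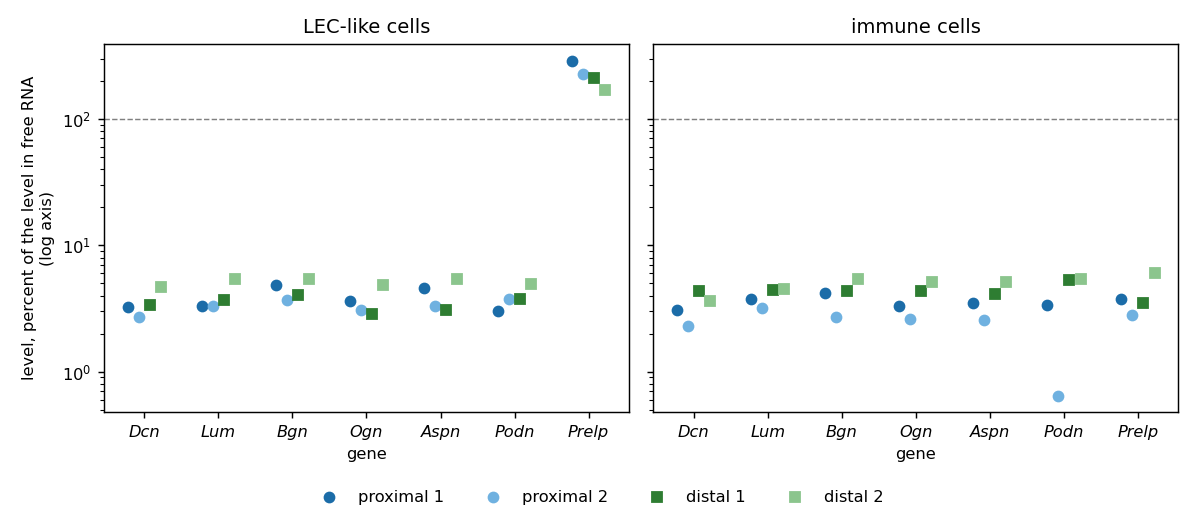
Level in LEC-like cells (left) and immune cells (right) as percent of the level in free RNA of the same library, on a log axis, for 7 genes and the 4 small intestinal libraries, with a dashed line at 100%. In LEC-like cells 6 genes lie at 2.72 to 5.44% and Prelp at 169 to 288%, and in immune cells Prelp lies with the rest.

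Pericyte-like cells, the mural cells of small vessels (gated on Rgs5, Notch3, Higd1b, Kcnj8 and Ndufa4l2), differed from fibroblasts in the other direction for a single gene. Of the 10 genes 1 was higher in them and 6 lower, where 17.3% of 16786 tested genes were higher and 23.8% lower. Fmod, which encodes a collagen-binding keratan sulfate proteoglycan best known from tendon and cartilage, was at 24.5, 49.4, 14.9 and 17.7 in pericyte-like cells and at 0.805, 0.913, 2.20 and 1.54 in fibroblasts. Every pericyte-like value lay above every fibroblast value, and the fold was 21.4 (log2 4.42 ± 0.408, adjusted p = 4.28e-10). The pericyte-like values rest on 16, 57, 3 and 35 UMIs. Fmod was seen in 9.09 to 24.5% of pericyte-like cells and in 0 to 0.0195% of LEC-like cells, at median depths of 5401 to 6956 and 5413 to 6561 UMIs, with means of 6.06% and 0.000949% after thinning. All 13 alternatives kept the call, with log2 differences from 3.83 (without proximal 2) to 4.75. Pericyte-like Fmod was at 26.1 in cecum (13 UMIs, with 15.3 in free RNA) and at 2.20 in large intestine (4 UMIs, with 1.61 in free RNA), the latter below all 4 small intestinal values.

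Dcn fell by 4.51, Lum by 4.09, Bgn by 1.85, Ogn by 2.39 and Podn by 2.47 (3.16 without distal 2) on the log2 scale in pericyte-like cells, and Epyc was left with 2 UMIs (ratio 11.01, counting interval 3.05 to 91.0), a call that was lost without the library block (adjusted p = 0.116). The median of the 10 was -2.12, against -0.17 for all tested genes. Aspn was at 733, 763, 696 and 851 in pericyte-like cells against 545, 554, 716 and 793 in fibroblasts, overlapping ranges whose difference did not pass (95% interval of the log2 difference -0.11 to 0.45). Prelp was at 127, 260, 89.4 and 179, and its log2 difference of 0.37 missed the threshold (adjusted p = 0.108) and passed without proximal 1 (0.43) or distal 1 (0.62). The fibroblast gate markers summed to 759 to 1308 CPM in pericyte-like cells, all 5 detected, and the 9 stress genes to 14744 to 20274, against 5153 to 8076 in fibroblasts. The part of either list in the pericyte-like differences was not tested. Xylt1 (log2 -3.21) was the farthest of the 11 chain genes that were lower of 21, and Chst3 (log2 1.86) and Csgalnact1 (log2 1.45) were higher. Of 6 other leucine-rich genes tested 2 were lower, Lrrc17 (log2 -2.12) and Tsku (log2 -1.94).

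Myofibroblast-like cells, gated on the contractile genes Myh11, Des, Actg2, Cnn1 and Synm, had 1 of the 10 genes higher and 6 lower than fibroblasts, where 17.5% of 16883 tested genes were higher and 22% lower. The 9 stress genes summed to 9336, 8865, 9050 and 9839 CPM in them, against 6393, 5807, 8076 and 5153 in fibroblasts, and their part in the differences was not tested. Podn was the higher one, at 176, 112, 169 and 184 against 87.5, 75.1, 106 and 88.4 in fibroblasts, without overlap and 1.72-fold (log2 0.78 ± 0.114, adjusted p = 4.81e-06). Podocan is known from smooth muscle and kidney. Dcn fell by 2.97, Lum by 3.56, Bgn by 0.91, Prelp by 0.92 and Omd by 1.93 on the log2 scale. The call on Omd (5 UMIs) was lost without proximal 1 (log2 -1.20), with limma-voom and with DESeq2. Epyc had 0 UMIs and was at least 10.3-fold lower against a floor of 3 UMIs over the group, a call that was lost without the library block (adjusted p = 0.0589). Aspn stayed high, at 717, 882, 599 and 943, and its difference from fibroblasts did not pass (interval -0.08 to 0.48), except without distal 1 (0.40, adjusted p = 0.0255). Ogn was at 620, 325, 502 and 488 against 512, 316, 417 and 219, above in each library (log2 0.37 ± 0.15, adjusted p = 0.0565), and passed in 5 of 13 alternatives, among them without proximal 1 (0.42) or proximal 2 (0.48). Without distal 2 the Ogn difference was 0.079. Optc, which neighbors Prelp on chromosome 1 and is known from the eye, was higher in myofibroblast-like cells (16.0 ± 8.33 SD against 1.49 ± 0.203, n = 4 libraries, log2 3.21), the only one higher of 6 leucine-rich genes tested. Of the other 5, Tsku (log2 -2.61), Ecm2 (-1.16) and Lrrc17 (-0.42) were lower. Of 21 chain genes 2 were higher and 10 lower.

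**Figure D4:**
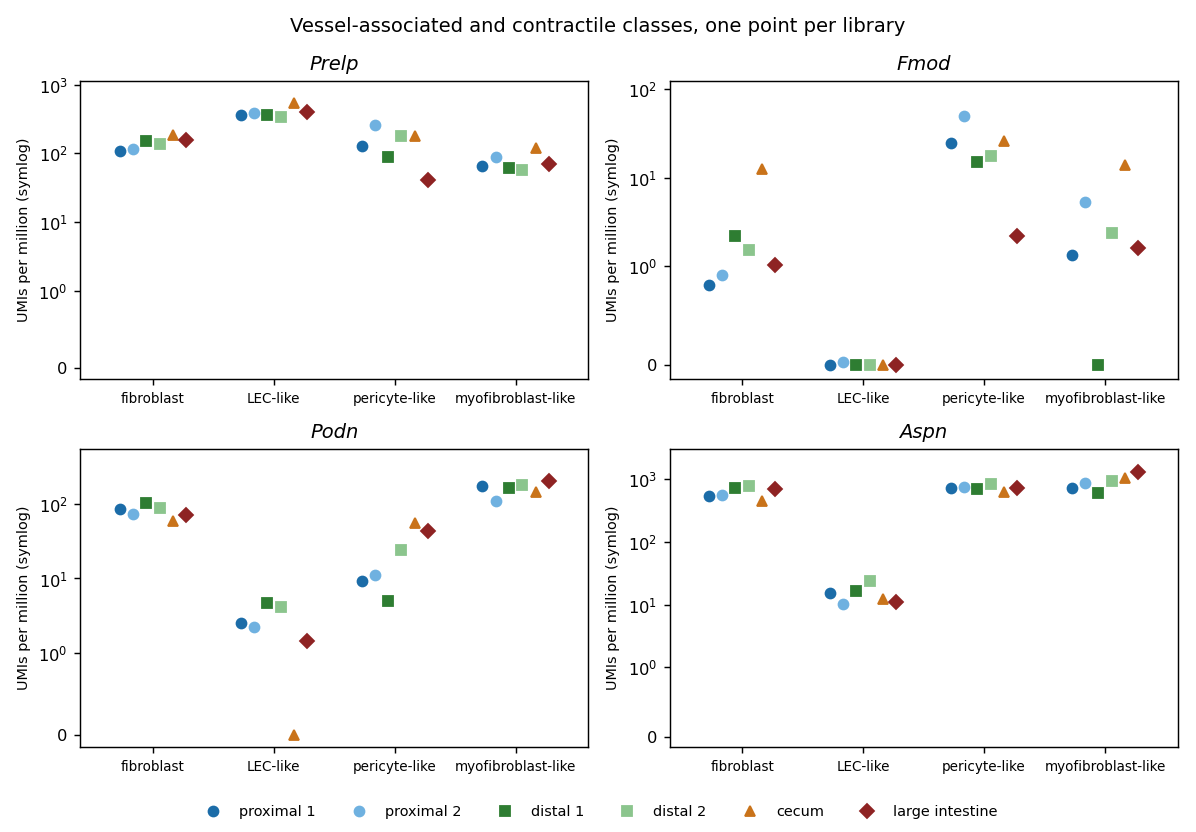
Level of Prelp, Fmod, Podn and Aspn in fibroblasts, LEC-like, pericyte-like and myofibroblast-like cells, one point per library, in CPM on a log axis that turns linear below 1. Prelp is highest in LEC-like cells in all 6 libraries, Fmod is above the fibroblasts in pericyte-like cells, and Podn is highest in myofibroblast-like cells.

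Prelp and Fmod are neighbors on a chromosome, and their promoter windows are given above. In the small intestine they had their highest levels in different classes, each clear of the next. For Aspn, Omd and Ogn the first place overlapped the second, with Aspn at 867 ± 243 (SD, n = 4) in Ccl8 and Postn fibroblasts (11 to 52 cells per library) and 861 ± 126 in Adamdec1 fibroblasts. Dcn and Lum, also neighbors, had a Pearson r of 0.94 between their log2 levels over 70 points, each a class in a library. The neighbors Aspn and Ogn had an r of 0.49. Dcn and Bgn, on different chromosomes, had an r of 0.80, and Bgn and Podn, also on different chromosomes, 0.78. Other pairs on different chromosomes had a lower r. The points share libraries, depth and free RNA, and are not independent. Prelp had a negative r with each of the other 6 abundant genes, from -0.11 to -0.49. The points include the LEC-like cells, where Prelp was highest and those 6 genes were far below their fibroblast levels. No r was computed without them, so its sign within the fibroblast classes is not known from it. From 7510 genes with a mean of at least 20 CPM, gate markers and any of the 10 genes were left out. Among the rest, those with the profile most like Dcn were Clec3b (0.96), Apbb1ip (0.95) and Dpt (0.95). For Lum they were Dpt (0.98), Clec3b (0.94) and Fbln1 (0.93), for Bgn Mxra8 (0.96), Rarres2 (0.96) and Cdk14 (0.95), and for Aspn Fstl3 (0.89), Pde5a (0.87) and Fzd7 (0.86). For Ogn they were Fgf7 (0.83), Sdc4 (0.82) and F3 (0.82), for Podn Gli1 (0.85), Fzd2 (0.84) and Snhg18 (0.84), and for Prelp Arhgap29, Ube2g2 and Slc31a2 (0.70, 0.69 and 0.69).

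The cecum and large intestine were set against the 4 small intestinal libraries as a large bowel group of 2, although they are different regions with 1 library each. Over all fibroblasts 1 of the 10 genes was higher and 1 lower in the large bowel, where 16.2% of 19570 tested genes were higher and 14.6% lower. Ogn was at 512, 316, 417, 219, 627 and 1318, with both large bowel libraries above the other 4 (log2 1.43 ± 0.388, adjusted p = 0.0313). That call was lost without the large intestine (0.86), without proximal 2 (1.34), among the libraries of one hashtag set (1.04) and with the hashtag set as a block (1.04, adjusted p = 0.0803). Epyc was lower, at 12.5, 4.76, 3.72 and 1.07 in the small intestine and 0.446 and 0.330 in cecum and large intestine (log2 -3.79 ± 0.998, adjusted p = 0.0286), and lost the call with limma-voom (-3.33) and without proximal 2 (-3.87), cecum (-4.06) or large intestine (-3.54). Without proximal 1 the Epyc difference was -2.98. The 9 stress genes summed to 5153 to 8076 CPM in fibroblasts of the small intestine, 20470 in cecum and 6930 in large intestine, and their part in the fibroblast differences was not tested. Subclass shares differed, with trophocyte-like cells numbering 4131 to 10280 in the small intestinal libraries and 255 and 410 in cecum and large intestine, so that levels over all fibroblasts and levels within a class were read separately. Dcn over all fibroblasts was at 6374 and 5933 in the large bowel against 8138 to 12449 (log2 -0.75 ± 0.3, adjusted p = 0.0944), which passed with DESeq2 (-0.73, adjusted p = 0.00703) and in none of the other 16 alternatives, while in trophocyte-like cells it was at 11672 and 16530 against 10648 to 14214.

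Within SEMF-like cells, which were present in number in all 6 libraries (502 to 3641 cells), 5 of 8 tested genes were higher in the large bowel and none was lower, where 21.6% of 15395 tested genes were higher and 17.6% lower. The median of the 8 was 1.24, against 0.01 for all tested genes. Ogn was at 74.0, 29.9, 61.4 and 41.9 in the small intestine, and at 670 and 1724 in cecum and large intestine. Both large bowel values lay far above all 4 small intestinal ones. The difference was 25.9-fold (log2 4.69 ± 0.443, adjusted p = 0.000417), and it passed in all 17 alternatives, with log2 differences from 3.88 (without the large intestine) to 5.42. By hashtag, Ogn in SEMF-like cells was at 22.9 to 104 in the small intestinal libraries, at 633 to 708 in cecum and at 1436 to 2013 in large intestine. The share of SEMF-like cells with an Ogn UMI was 15.0 to 21.3% in the small intestine, 79.5% in cecum and 88.8% in large intestine, against 6.25 and 13.6% of the LEC-like cells of the last 2 libraries. After thinning to 2500 UMIs the SEMF-like shares were 5.37 to 9.50, 62.2 and 76.0%. Ogn in free RNA was at 118 to 314 in the small intestine, 503 in cecum and 936 in large intestine. In fibroblasts of no subclass gate Ogn was at 541 in cecum and 282 in large intestine, against a small intestinal mean of 164. In Ccl8 and Postn fibroblasts it was at 477 and 340 against 161. In fibroblasts with Ptn, Scg2 or Gdf10 it was at 396 and 255 against 336. These class differences were not tested.

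Lum was at 115, 149, 174, 156, 397 and 371 in SEMF-like cells, higher in both large bowel libraries (log2 1.53 ± 0.176, adjusted p = 0.000905). With free RNA subtracted the Lum difference grew to 3.14 and missed the threshold (adjusted p = 0.0706). Aspn was at 143, 276, 116, 191, 303 and 477 (log2 1.27 ± 0.316, adjusted p = 0.0166), and Prelp at 49.4, 81.5, 48.2, 45.7, 82.9 and 112 (log2 0.95 ± 0.237, adjusted p = 0.0163). In both, the cecum value lay just above the highest small intestinal one. Both calls were lost without the large intestine (Aspn 0.92, Prelp 0.74). Podn passed narrowly (adjusted p = 0.0473) on the large intestine alone, at 70.4, while the cecum, at 18.6, lay below all 4 small intestinal libraries. Without the large intestine the Podn difference was -0.029, without the cecum 1.87, and 8 of 17 alternatives kept the call. Omd, with 132 UMIs in the large bowel and 29 in the small intestine, missed the threshold (log2 1.58 ± 0.575, adjusted p = 0.0602) and passed in 4 of 17 alternatives. Leaving out single libraries moved the Omd difference between 0.80 and 2.07. Dcn (adjusted p = 0.159) missed it and passed in 2, with free RNA subtracted (0.61) and without distal 1 (0.52). Bgn did not pass, and the interval of the log2 difference was -0.20 to 0.52.

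Markers moved with these values. In SEMF-like cells the 4 telocyte gate markers summed to 73.9 to 112 CPM in the small intestine and 206 to 354 in the large bowel, all 4 detected in each. The 6 SEMF gate markers summed to 1496 to 1847 and 3124 to 4281. Of genes not used in the gates, F3 was at 6.09 to 24.7 in the small intestine and at 58.6 and 178 in cecum and large intestine, and Foxl1 at 7.92 to 17.3 against 30.7 and 43.4, while Frmd5 was at 87.1 to 325 against 2.20 and 0.648. The 9 stress genes summed to 761 to 2013 in SEMF-like cells of the small intestine and to 12462 and 7062 in cecum and large intestine. The part of the marker and stress shifts in the Ogn, Lum, Aspn and Prelp differences was not tested. The study divides SEMFs into more than 1 cluster, which the gate used here does not separate. It describes a SEMF cluster as more abundant in cecum and large intestine, but not in the small intestine. A change of level within cells and a change in which SEMFs filled the gate cannot be told apart here. Proximal 1 and distal 1 carried the same hashtag set as both large bowel libraries, and among these 4 libraries the Ogn difference in SEMF-like cells passed, as it did with the hashtag set as a block over all 6 (a fit added after seeing the data), both among the 17 alternatives counted above. With that block Lum, Aspn and Prelp kept their calls in SEMF-like cells and Podn lost it (1.31, adjusted p = 0.104).

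In telocyte-like cells 1 of 7 tested genes was lower in the large bowel and none was higher, where 5.37% of 7003 tested genes were lower and 4.48% higher. Dcn was at 1500, 3889, 3423, 3207, 703 and 1423 (log2 -1.45 ± 0.4, adjusted p = 0.0461). Both large bowel values lay below all 4 others, the large intestine just below proximal 1. That call held in 7 of 17 alternatives and was lost, among others, with the hashtag set as a block (-1.18) and without proximal 2, distal 1, distal 2 or the cecum (-0.99). Ogn was at 998, 1074, 606, 1418, 1357 and 2824 in telocyte-like cells, overlapping, with a log2 difference of 1.09 that missed the threshold (adjusted p = 0.0648). It passed without the cecum (1.56) and without the filter on low counts (1.20), where Aspn also passed (0.81), and was 0.54 without the large intestine. The 9 stress genes summed to 2212 to 8526 CPM in telocyte-like cells of the small intestine, 14625 in cecum and 4422 in large intestine, and their part in these values was not tested. The study divides telocytes too into more than 1 cluster, which the gate does not separate. It describes a telocyte cluster found mostly in the large intestine, with few cells in cecum and none in the small intestine. A change within cells and a change in which telocytes filled the gate cannot be told apart here.

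The difference between SEMF-like and trophocyte-like cells was then compared between large bowel and small intestine, a test added after the values had been seen. Of the 10 genes 2 had a positive interaction and none a negative one, where 8.9% of 16760 tested genes were positive and 4.33% negative, with a median of 1.16 for the 10 and 0.13 for all tested genes. The share of calls that were positive was 67.3% here and 56.5% with DESeq2, which called 3 of the 10. Ogn had an interaction of log2 3.71 ± 0.48 (adjusted p = 0.00283), past the threshold in all 15 alternatives, and was 2.83 without the large intestine and 4.54 without the cecum. Its trophocyte-like levels were 722, 494, 542, 322, 998 and 794, so that in the large intestine Ogn was higher in SEMF-like than in trophocyte-like cells, the reverse of the other 5 libraries. Lum had an interaction of 1.71 ± 0.316 (adjusted p = 0.0118), lost when free RNA was subtracted (4.08, adjusted p = 0.182). Aspn missed the threshold at 1.22 (adjusted p = 0.0671). Fmod passed without the cecum alone, on a fitted value that is no bound. The trophocyte-like class was not filled alike in the 2 parts of the gut. At the trophocyte gate of 3 markers, 334 fibroblasts had exactly 3 and 4 had more in cecum, 554 and 16 in large intestine, and 2796 to 5938 and 1581 to 4853 in the small intestinal libraries. So a change within trophocyte-like cells and a change in which cells filled that gate cannot be told apart in the interaction. In trophocyte-like cells the 9 stress genes summed to 7430 to 9429 CPM in the small intestine, 25992 in cecum and 13459 in large intestine. Their part in the interaction was not tested. The chain sulfotransferases Chst15 and Chst11 also had positive interactions (2.00 and 1.51), 2 of the 4 positive and 1 negative calls among 21 chain genes, and Ecm2 was the single call among 6 other leucine-rich genes (-0.93).

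**Figure D5:**
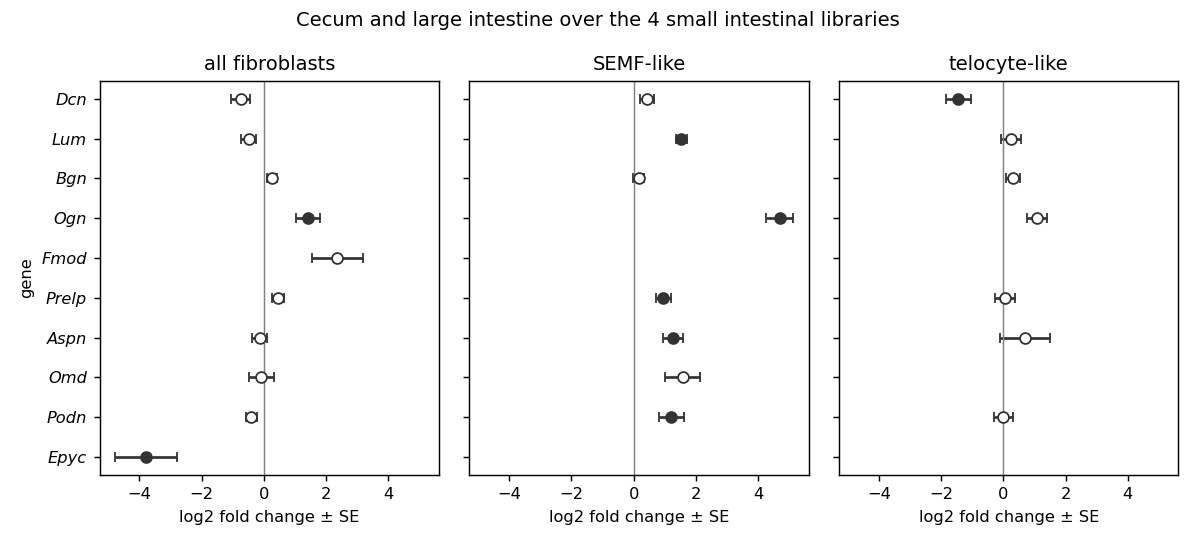
Log2 difference (± SE) between cecum with large intestine (2 libraries) and small intestine (4 libraries) for each gene, over all fibroblasts, in SEMF-like and in telocyte-like cells. Filled points pass an adjusted p of 0.05 in edgeR, and genes without a point did not pass the filter on low counts. Ogn has log2 differences of 1.43, 4.69 and 1.09 in the 3 panels.

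Among the chain genes, 6 were higher and 3 lower of 21 tested in SEMF-like cells of the large bowel, where 21.6% of all tested genes were higher and 17.6% lower, led by Chst11 (log2 1.56), Chst12 (1.28) and Chst3 (-1.74). Over all fibroblasts 2 were higher and 3 lower, with Xylt1 at 26.9 ± 0.683 SD in the 2 large bowel libraries and 89.6 ± 17.8 in the 4 small intestinal ones. Lrrc17 was the single one of the other leucine-rich genes higher in both (log2 0.60 over all fibroblasts, 0.71 in SEMF-like cells). In telocyte-like cells Chsy3, a chain synthase, was higher (log2 2.19), 1 of 12 chain genes tested.

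Another list held 10 matrix proteoglycans outside the family. Its counts are a description, to be set beside the shares of all tested genes given with each comparison. Between SEMF-like and trophocyte-like cells 1 of 6 tested was higher (Spock3, log2 6.17) and 3 were lower, including Spock2 (-4.65) and perlecan, encoded by Hspg2 (-1.38). In telocyte-like against SEMF-like cells Hspg2 was higher (1.42) and Vcan, versican, lower (-0.99) of 5 tested. Of 6 tested in universal fibroblast-like against trophocyte-like cells 3 were higher and 2 lower. Against fibroblasts, LEC-like cells had 2 of 8 higher, Srgn (2.46) and Agrn (1.45), and 5 lower, with Vcan at -5.15, where 35.5% of all tested genes were higher and 39.4% lower. Pericyte-like cells had 1 of 7 higher (Agrn, 1.49) and 4 lower, and myofibroblast-like cells 2 of 7 higher and 2 lower. In the large bowel 2 of 9 were higher over all fibroblasts (Esm1, 1.98, and Hspg2, 0.49) and 1 of 6 in SEMF-like cells (Hspg2, 1.16), while none of 2 was called in telocyte-like cells. The interaction of class and bowel was positive for 2 of 6, Spock2 (1.69) and Hspg2 (0.79).

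The cecum and the large intestine, 1 library each, can be compared only as libraries. Ogn in SEMF-like cells was 2.57-fold higher in the large intestine (exact interval 2.53 to 2.62), and Podn 3.80-fold (3.41 to 4.23). Lum in universal fibroblast-like cells was 2.96-fold higher in the large intestine. Fmod went the other way, at 12.4 in cecum fibroblasts against 1.03 in the large intestine and 0.805 to 2.20 in the small intestine, 12.0-fold higher in the cecum (9.71 to 15.0). Cecum Fmod was at 32.03 in trophocyte-like, 26.1 in pericyte-like and 15.3 in free RNA, and at 3.50, 13.1 and 18.3 in the fibroblasts of the 3 hashtags. The part of the higher stress genes of cecum fibroblasts in these values was not tested. Prelp in pericyte-like cells was 4.34-fold higher in the cecum (3.15 to 5.997), where 88 and 74 UMIs were counted in cecum and large intestine, and in LEC-like cells 1.37-fold (1.24 to 1.52). Over all fibroblasts the large bowel difference of Fmod was 2.36 on the log2 scale (adjusted p = 0.0658), turned to -0.41 without the cecum and was 3.26 without the large intestine. It passed the threshold with the 4 regions as groups (1.53).

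Between distal and proximal small intestine, 2 libraries each, none of the 10 genes was called without a replicate block in fibroblasts (0.00526% of 19025 tested genes higher, 0% lower), in trophocyte-like cells (0.0515 and 0.0572% of 17487) or in SEMF-like cells, where 7 were tested (0.00698% of 14323 in each direction). By edgeR at an unadjusted p under 0.05 there were 3 of 10, 4 of 10 and 0 of 7, where 680, 1151 and 437 of all tested genes had such a p. DESeq2 called 2 of the 10 in trophocyte-like cells, Fmod and Prelp, and 281 of all 17487 genes there. Libraries of the same number also shared a hashtag set, and with that number as a replicate block 403, 808 and 271 genes were called in place of 1, 19 and 2. Among them were Fmod (log2 1.14) and Epyc (-1.89) in fibroblasts and Fmod (1.53), Prelp (0.51) and Epyc (-2.17) in trophocyte-like cells. In trophocyte-like cells Fmod was at 1.03 and 0.64 in the proximal and 2.42 and 2.34 in the distal libraries (log2 1.51, adjusted p = 0.226). Prelp was at 109 and 109 against 153 and 157 (log2 0.51, adjusted p = 0.331), and Aspn at 571 and 591 against 736 and 944 (log2 0.53, adjusted p = 0.647). For all 3 both distal values lay above both proximal ones. Epyc was at 18.6 and 8.04 against 4.69 and 1.45, with both distal values lower (log2 -2.05, adjusted p = 0.473), and it passed without proximal 2 (-2.55). Leaving out single libraries moved the Epyc difference between -3.26 (without distal 1) and -1.29 (without proximal 1). Without the filter on low counts Fmod (1.52) and Epyc (-2.03) passed, as 2 of 228 genes. With 2 libraries a side, the smallest p that a permutation of single values can give is 0.333. The difference between SEMF-like and trophocyte-like cells did not pass a test of change between the regions for any of the 10 (0.0351% of 17104 tested genes positive and 0.0819% negative). There 6 of the 10 and 1223 of all 17104 genes had an unadjusted p under 0.05 by edgeR, and DESeq2 called none of the 10 and 90 of all genes. Without proximal 1, where 264 of 17710 genes passed, Aspn (-1.37), Prelp (-1.30) and Ogn (1.01) were among them. Without the filter on low counts 573 of 26694 genes passed, with Ogn (0.62) and Lum (0.49) positive and Prelp (-0.96) and Aspn (-0.93) negative. None of the chain genes or other leucine-rich genes was called between the regions by edgeR with the count filter, all 4 libraries and no replicate block, the only fit in which these lists were read.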

How the data were processed

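Single-cell RNA libraries of sorted tdTomato+ lamina propria cells were read as the deposited matrices of raw UMI counts per gene and barcode, which the authors made with Cell Ranger on mm39 with tdTomato added. The study's methods and the submitters' notes name version 8.1.0, and the file headers 8.0.1. Later steps of the study (DoubletFinder, SoupX, Seurat) are not in the deposited counts. The members and gene lists were chosen with earlier results of these data known.

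Cells with 2500 to 40000 UMIs, 1000 to 7500 genes and under 10% mitochondrial UMIs were kept. Cells with several hashtags, at 2.5 robust SDs (8.39 to 13.8% of a library), were removed as doublets, which misses doublets within a hashtag. Cells with markers of several lineages (1.15 to 9.03%) entered no class. Cells were gated on marker lists (at least 3 markers, 4 of 5 for the fibroblast lineage, 2 for Ptn, Scg2 and Gdf10, and both genes of the lists with 2), with no clustering. The share of fibroblasts 1 marker short of a gate was 0.291 to 32.5%. Free RNA was the sum of barcodes with at most 100 UMIs, and genes seen in cells were scored also after thinning to 2500 UMIs.

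UMIs were summed per library and class with at least 10 cells. Differences were tested with edgeR 4.0.16 (R 4.3.3), using TMM scaling, filterByExpr with a minimum count of 10, the quasi-likelihood test and Benjamini-Hochberg adjustment at 0.05 over all tested genes, with the library as a block between classes. The SE is the log2 difference over the square root of F. The alternatives were limma-voom 3.58.1, DESeq2 1.42.0, its size factors, no count filter, 10% of each sum removed along the free RNA profile, no hashtag removal, stricter gates, a looser cell filter (1000 UMIs, 500 genes), no block, a replicate block, 1 hashtag set, the hashtag set as a block, 4 regions as groups and each library left out. The comparison of the class difference between large bowel and small intestine, with its alternatives, and the hashtag block were chosen after seeing the data. The tests were checked on simulated data. Genes named are the members, up to 3 genes per other list and comparison with the largest fitted change among those that passed, and the 3 genes with the highest correlation with a member. Intervals of ratios of counts are exact at the 95% level. Those of log2 differences are approximate 95% intervals, computed from the SE with the normal distribution. They do not follow the quasi-likelihood test and can be too narrow with so few libraries.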

Additional observations from a re-analysis of the deposited data

Results flagged for a closer look

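The difference between SEMF-like and trophocyte-like cells changed between small intestine and large bowel for Ogn and Lum, by the interaction in edgeR given in the report (log2 3.71 for Ogn and 1.71 for Lum, with 4 small intestinal and 2 large bowel libraries). For 3 further results every small intestinal library moved one way and both large bowel libraries the other, and the difference was not tested. Dcn was higher in universal fibroblast-like than in trophocyte-like cells in the 4 small intestinal libraries and lower in cecum and large intestine, with a mean log2 ratio of -0.45 there. Ogn did the same, with a mean of -0.32 in the large bowel. Ogn was also higher in myofibroblast-like cells than in fibroblasts in the 4 small intestinal libraries and lower in cecum and large intestine, with a mean of -0.50. No labelled group held more than 2 samples, so that no search for a sample far from the others could be made.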

How the results depend on the processing

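The values below are numbers of genes called unless a gene is named, and the cause of each change was not tested. Of 1153 alternatives computed for the 83 member differences with an unadjusted p under 0.1, 41 lost the call, 41 gained one and 3 changed direction. Those were Fmod over all fibroblasts without the cecum (-0.41, and 3.26 without the large intestine), Podn in SEMF-like cells without the large intestine (-0.029, and 1.87 without the cecum) and the Podn interaction of class and bowel without the large intestine (-0.13, and 2.08 without the cecum). Universal against trophocyte-like cells gave 1179 without the library block, against 3167. Large bowel against small intestine gave 1732 over all fibroblasts and 2724 in SEMF-like cells within 1 hashtag set, 3452 and 3809 with the hashtag set as a block (added after seeing the data), and 3125 to 6580 and 3442 to 6947 with each library left out. In telocyte-like cells it gave 1080 with limma-voom, 1509 without the count filter, 412 at the stricter gate, 238 within 1 hashtag set, 382 with the set as a block, 390 with 4 regions as groups and 244 to 1074 with each library left out, against 690. Distal against proximal fibroblasts gave 1 as reported, 0 with limma-voom, 139 with DESeq2, 2 with its size factors, 19 without the count filter, 2 with free RNA subtracted, 2 without hashtag removal and 6 to 21 with each library left out. Trophocyte-like cells gave 19, and 281 with DESeq2, 228 without the count filter, 11 without hashtag removal and 73 to 152 with each library left out. SEMF-like cells gave 2, and 1 with limma-voom, 34 with DESeq2, 207 without the count filter, 0 with free RNA subtracted or at the stricter gate and 0 to 157 with each library left out. The interaction of class and region gave 20, and 90 with DESeq2, 573 without the count filter, 5 with free RNA subtracted, 54 at the stricter gate, 0 without the library block and 1 to 264 with each library left out. The interaction of class and bowel gave 2217, and 759 without the library block and 986 to 1803 with each library left out. With the replicate block, distal against proximal gave 403 in fibroblasts, 808 in trophocyte-like and 271 in SEMF-like cells, with Fmod (1.14) and Epyc (-1.89) called in fibroblasts and Fmod (1.53), Prelp (0.51) and Epyc (-2.17) in trophocyte-like cells. Same-numbered libraries correlated at 0.350, 0.323 and 0.345 in their deviations over 2 pairs, and they share a number and a hashtag set, which the labels do not tie to an animal. No paired analysis by replicate number was possible for cecum and large intestine because their titles carry no such number. Of 90 member levels, 22 of 173 alternatives moved by more than 1 SD, and with free RNA subtracted Dcn, Lum and Bgn went to 0 in LEC-like and immune cells, among genes with a level of at least 20 CPM there.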
